A study of Mus musculus with 96 samples.

Results

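The 9 genes described here encode parts of the scaffold beneath excitatory synapses and proteins of dendrites and spines: Dlg4, Dlgap1, Shank1, Shank2, Shank3, Homer1, Ddn, Icam5 and Itpka. Each was read from its Affymetrix transcript cluster, a set of probes along the exons of a gene, that carries that gene symbol alone, in the annotation of the 1.1ST arrays described below. Where a gene had more than 1 such cluster, the one with the higher mean on those arrays was taken, and the same cluster was read on both array formats. They are 9 of 28310 transcript clusters measured, of which 21207 carry 1 gene symbol. They were selected on their measured hindbrain minus forebrain differences, with results of these data known, so those region differences are given as a description without a test.

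The brains came from 16 adult male mice, 8 of the NOD/ShiLtJ strain (NOD), an inbred model of autoimmune diabetes, and 8 of the C57BL/6J strain. Within each strain 4 mice had received an intraperitoneal injection of clozapine, an atypical antipsychotic, and 4 the saline vehicle, and the mice were killed 3 h later. From each mouse 1 hemisphere was divided into hindbrain and forebrain and the other was kept intact as whole brain, with the cerebellum removed, so a region is a mixture of nuclei and cell types. Total RNA of each of the 48 tissue pieces was hybridised to 2 array formats that carry the same probe design, Mouse Gene 1.1ST, used unless another is named, and 1.0ST. The 1.0ST arrays hold the same RNA and are not further replicates. Values are log2 signals, on which a difference of 1 is a doubling. They can be compared between samples for 1 gene but not between genes.

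In an excitatory synapse, glutamate receptors in the membrane of a dendritic spine are held by layers of scaffold proteins. The scaffold encoded by Dlg4 binds receptors and adhesion molecules, the protein encoded by Dlgap1 links Dlg4 to the Shank proteins, and the Shanks bind Homer1, which contacts metabotropic glutamate receptors and the actin cytoskeleton. Ddn (dendrin) is a cytoplasmic dendrite protein whose messenger RNA is itself carried into dendrites, Icam5 (telencephalin) is a dendritic adhesion molecule known for its restriction to the telencephalon, and Itpka is an inositol trisphosphate kinase that binds actin filaments in spines.

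The members lie on 7 chromosomes of the mouse genome (coordinates of build GRCm38.p6 from RefSeq). Homer1 spans chr13:93303757-93405129, Shank1 chr7:44308916-44360094, Shank2 chr7:143978077-144426043, Shank3 chr15:89493013-89560261, Dlg4 chr11:70017203-70045535, Dlgap1 chr17:69969073-70821413, Ddn chr15:98803782-98807925, Icam5 chr9:21032038-21039036 and Itpka chr2:119742337-119751253. RefSeq promoters were matched for 6 of the 9 members, 10 promoters in all. The 250 bases before the annotated start are printed for 3 of them, all on the plus strand: Itpka and Icam5 because their levels differ most between regions among the matched genes, and Homer1 as the scaffold gene with the next largest gap. Capitals mark matches on either strand to the E-box CANNTG, the core TGACG of the cyclic AMP response element (its reverse complement is CGTCA) and the GC box GGGCGG (its reverse complement is CCGCCC). The windows are chr2:119742087-119742336 for Itpka, chr9:21031788-21032037 for Icam5 and chr13:93303507-93303756 for Homer1.
Itpka: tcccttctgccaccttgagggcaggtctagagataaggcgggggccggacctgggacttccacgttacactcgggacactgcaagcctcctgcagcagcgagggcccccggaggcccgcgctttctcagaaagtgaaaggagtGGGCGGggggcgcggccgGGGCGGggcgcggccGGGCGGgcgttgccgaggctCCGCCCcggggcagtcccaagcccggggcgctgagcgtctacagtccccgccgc
Icam5: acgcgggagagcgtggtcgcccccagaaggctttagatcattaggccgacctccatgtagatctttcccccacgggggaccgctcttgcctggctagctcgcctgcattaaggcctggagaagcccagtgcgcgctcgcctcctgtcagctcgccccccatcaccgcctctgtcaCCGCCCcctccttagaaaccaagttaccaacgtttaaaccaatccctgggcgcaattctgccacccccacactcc
Homer1: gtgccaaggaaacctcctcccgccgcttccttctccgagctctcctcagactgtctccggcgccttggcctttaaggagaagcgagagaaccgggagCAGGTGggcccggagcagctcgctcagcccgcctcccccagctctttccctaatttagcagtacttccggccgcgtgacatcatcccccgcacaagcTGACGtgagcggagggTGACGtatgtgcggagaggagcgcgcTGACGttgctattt

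The 3 windows differed in what they held. The Itpka window held 4 GC boxes and the Icam5 window 1, and neither held an E-box or the TGACG core. The Homer1 window printed, the one at the first base of the gene, held 3 such cores and 1 E-box and no GC box. A second RefSeq window of Homer1, chr13:93307784-93308033, held 5 E-boxes and neither of the other motifs. Over 32851 promoter windows of the same length, 66.2% held an E-box, 17.8% the TGACG core and 32.7% the GC box. These are matches of letters and were not tested as binding sites.

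**Figure D1:**
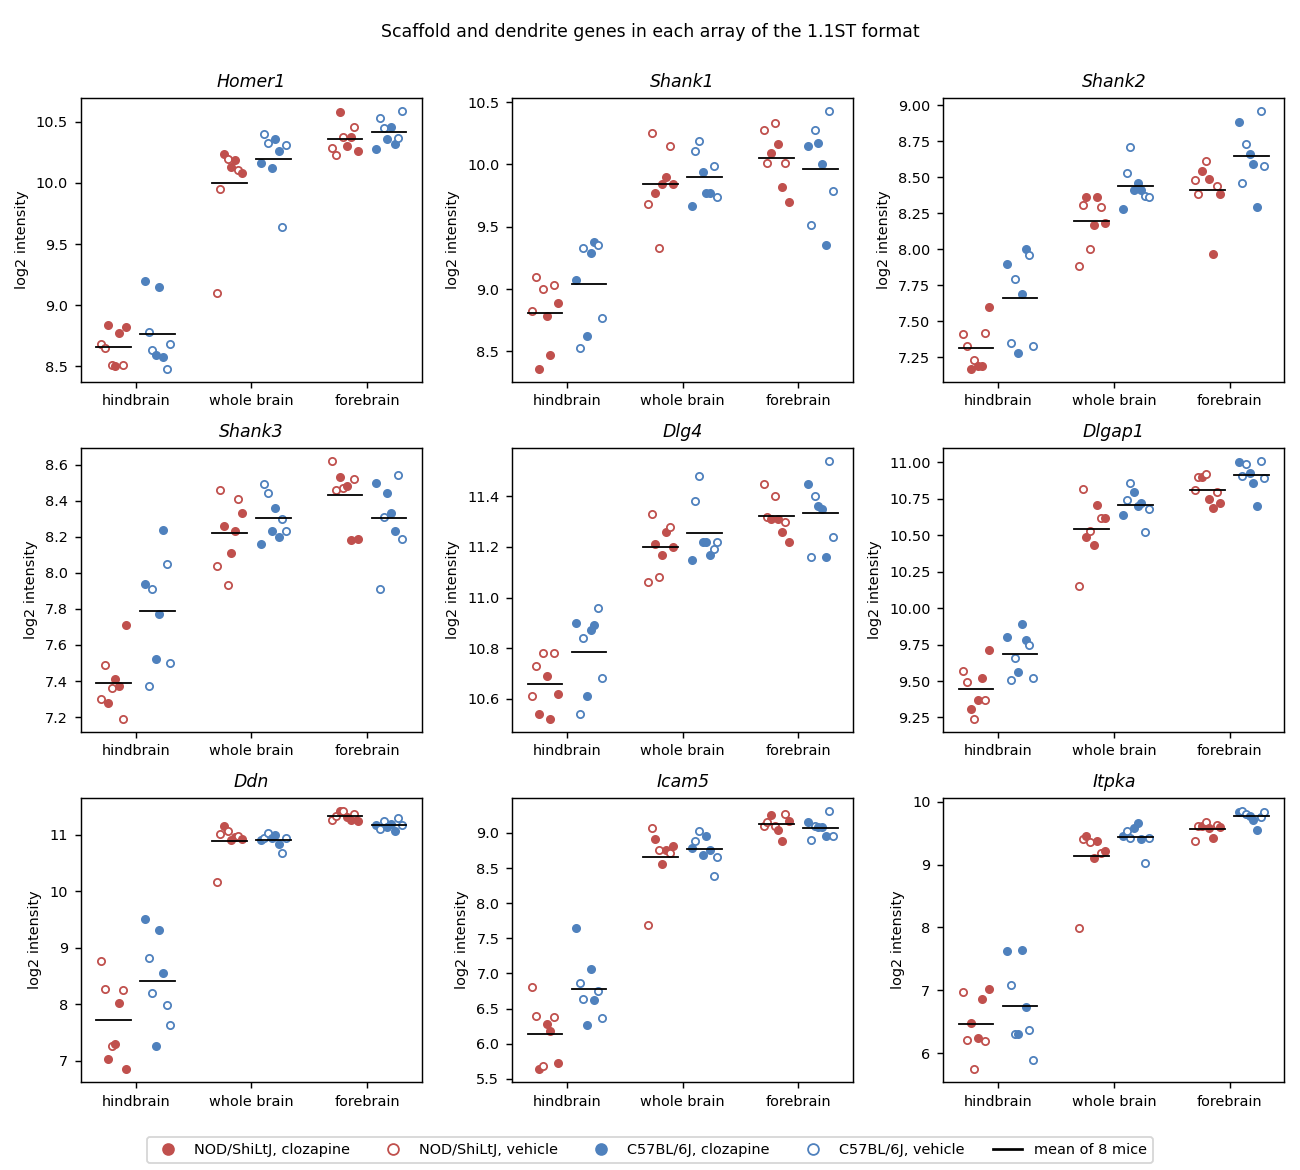
Level of each of the 9 genes on the 1.1ST arrays (log2 signal, vertical axis) by region and strain, with each point 1 mouse, filled for clozapine and open for vehicle, and each line the mean of 8 mice. The mean of every gene was lower in hindbrain than in whole brain and forebrain, with the widest drops in Ddn, Itpka and Icam5 and the narrowest in Dlg4.

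The scaffold genes were lower in hindbrain by graded amounts, and Dlg4 the least. Its level in hindbrain averaged 10.66 ± 0.10 in NOD and 10.79 ± 0.16 in C57BL/6J (SD, n = 8 each), against 11.22 to 11.45 in NOD forebrain and 11.16 to 11.54 in C57BL/6J forebrain. Within a mouse the difference between hindbrain and forebrain was -0.60 ± 0.13 on the log2 scale (1.52-fold lower, in 16 of 16 mice). Dlgap1, the linker between Dlg4 and the Shanks, had hindbrain levels of 9.24 to 9.71 (median 9.43) in NOD and 9.51 to 9.89 (median 9.70) in C57BL/6J, against forebrain levels of 10.69 to 10.92 in NOD and 10.70 to 11.01 in C57BL/6J. No hindbrain of either strain reached the lowest forebrain. The difference within a mouse was -1.30 ± 0.21 (2.46-fold lower, 16 of 16 mice).

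The 3 Shank genes differed from each other in how evenly they dropped. The difference between hindbrain and forebrain was -1.08 ± 0.41 for Shank1 (2.11-fold lower, 15 of 16 mice), -1.04 ± 0.28 for Shank2 (2.05-fold, 16 of 16 mice) and -0.78 ± 0.38 for Shank3 (1.72-fold, 15 of 16 mice). The 1 mouse without a drop in Shank1 and Shank3 was the same C57BL/6J mouse, BB703, at differences of 0.03 and 0.01, and it also had the smallest drop of Shank2 among the 16 mice, at -0.29. The drop of Shank2 holds for the cluster used here. A pair of further clusters, given to Shank2 by the annotation of the 1.0ST arrays, averaged higher in hindbrain than in forebrain on the 1.1ST arrays, by 0.52 ± 0.46 (6.94 in hindbrain against 6.42 in forebrain) and 0.36 ± 0.35 (7.42 against 7.06), each in 14 of 16 mice. Shank1 averaged 10.05 ± 0.22 in NOD forebrain and varied more widely in C57BL/6J forebrain, at 9.96 ± 0.38 (SD, n = 8 each). Homer1, which closes the chain from receptor scaffold to actin, ran from 8.50 to 8.84 (median 8.67) in NOD hindbrain and from 8.48 to 9.20 (median 8.65) in C57BL/6J hindbrain, against 10.23 to 10.58 (median 10.34) in NOD forebrain and 10.28 to 10.59 (median 10.41) in C57BL/6J forebrain. Its difference of -1.68 ± 0.24 (3.2-fold lower, 16 of 16 mice) was the largest among the 6 scaffold genes.

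The 3 dendrite and spine genes dropped further than any scaffold gene. Ddn in hindbrain ran from 6.85 to 8.76 (median 7.65) in NOD and from 7.25 to 9.50 (median 8.37) in C57BL/6J, against 11.24 to 11.42 in NOD forebrain and 11.06 to 11.29 in C57BL/6J forebrain. The forebrains of a strain were close to each other while its hindbrains were widely spread. The mean difference within a mouse was -3.19 ± 0.86 (9.14-fold lower, 16 of 16 mice). Itpka differed by -3.06 ± 0.58 between hindbrain and forebrain (8.32-fold lower, 16 of 16 mice), with hindbrain levels of 5.75 to 7.02 in NOD and 5.90 to 7.64 in C57BL/6J, against 9.37 to 9.68 in NOD forebrain and 9.55 to 9.85 in C57BL/6J forebrain. Icam5, the telencephalic adhesion molecule, differed by -2.64 ± 0.56 (6.23-fold lower, 16 of 16 mice), with hindbrain levels of 5.64 to 6.81 (median 6.23) in NOD and 6.26 to 7.64 (median 6.70) in C57BL/6J, against 8.89 to 9.27 (median 9.13) in NOD forebrain and 8.90 to 9.31 (median 9.08) in C57BL/6J forebrain. Over both strains the hindbrain means of Icam5 (6.46) and Itpka (6.61) lay near the array medians of 6.28 to 6.61. The part of background signal in these low values was not tested.

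Whole brain lay close to forebrain for each member. Mean differences between whole brain and forebrain of the same mouse ran from -0.10 for Dlg4 to -0.38 for Icam5 and Itpka, and were -0.29 ± 0.29 for Homer1, -0.35 ± 0.23 for Ddn, -0.24 ± 0.19 for Dlgap1, -0.21 ± 0.29 for Shank2, -0.13 ± 0.41 for Shank1 and -0.11 ± 0.29 for Shank3 (SD, n = 16). Homer1, Ddn, Icam5 and Itpka were lower in whole brain than in forebrain in 16 of 16 mice, while Shank1 and Shank3 were lower in 10 and higher in 6. For Dlg4 and the 3 Shank genes the mean difference between these neighbouring regions was smaller than its SD. The whole brain of the NOD mouse DD656 was the lowest of its group for Homer1 (9.10), Ddn (10.173), Icam5 (7.69) and Itpka (7.99). It was also the lowest for Shank2 (7.88), Dlg4 (11.06) and Dlgap1 (10.15), but not for Shank1 and Shank3. In this array the mean of 16 markers of telencephalic glutamatergic neurons was 8.30, the lowest of the 16 whole brains (8.30 to 9.10), and the mean of 15 oligodendrocyte markers was 10.19, the highest (9.53 to 10.19). The part of tissue makeup in these low values was not tested.

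**Figure D2:**
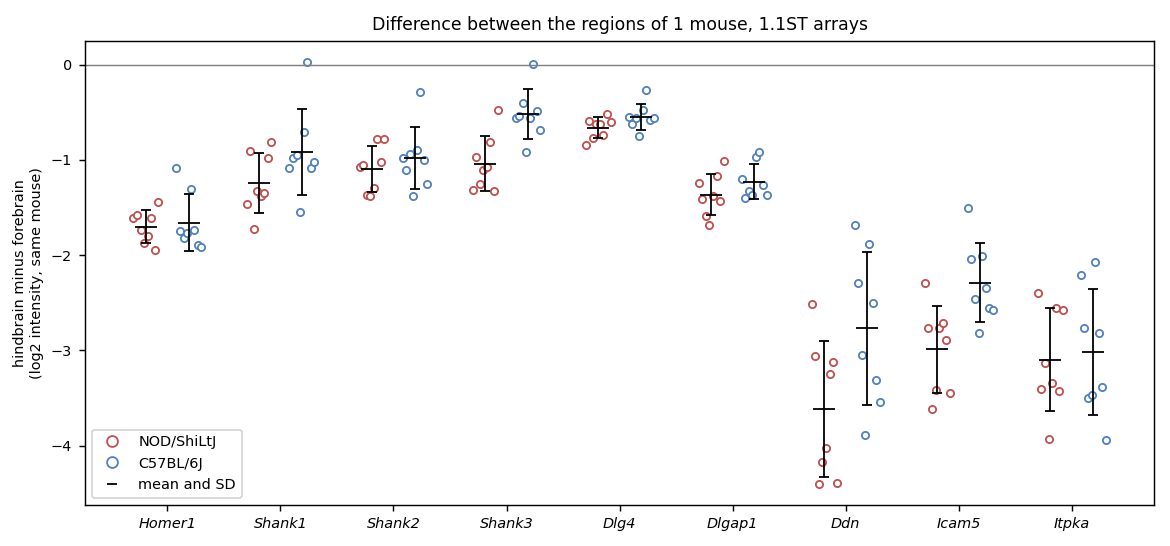
Difference of each gene between hindbrain and forebrain of the same mouse on the 1.1ST arrays (log2, vertical axis), with 1 point for each of the 16 mice in the colour of its strain and the mean and SD of each strain (n = 8). Mean differences over all mice ran from -3.19 for Ddn to -0.60 for Dlg4, and values at or above 0 occurred in 1 mouse for Shank1 and Shank3.

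On the 1.0ST arrays the mean differences were smaller in size and in the same order: -2.94 for Ddn, -2.35 for Itpka, -1.93 for Icam5, -1.57 for Homer1, -1.15 for Dlgap1, -0.94 for Shank1, -0.77 for Shank2, -0.55 for Shank3 and -0.54 for Dlg4. For Shank2 this is the cluster used on the 1.1ST arrays. By the annotation of the 1.0ST arrays another cluster has the highest mean there, and it differed by 0.02 ± 0.27 (9.91 in hindbrain against 9.89 in forebrain, lower in 8 of 16 mice), while the third differed by 0.30 ± 0.29. The 8 clusters outside the members whose profile over the 48 arrays was most like the mean centred profile of the 9 genes were Cracdl (Pearson's r 0.994), Kcnh3 (0.994), Ctxn1 (0.991), Agap2 (0.991), Chrm1 (0.990), Wipf3 (0.990), Ankrd33b (0.990) and Plppr4 (0.990). On the 1.0ST arrays the same 8 had r between 0.975 and 0.992. Kcnh3 encodes a voltage-gated potassium channel and Chrm1 a muscarinic acetylcholine receptor, and Agap2 is an Arf GTPase-activating protein. These r values describe arrays that share mice and fall into 3 regions, and carry no test.

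Genes outside the 9 were tested between hindbrain and forebrain over the whole array, where 27.5% of clusters were called higher in hindbrain and 19.7% lower (limma, false discovery rate below 0.05). The median difference over all clusters was 0.02. These values come from a fit adjusted for surrogate variables, estimates of unlabelled variation taken from the arrays. The variables were computed from signals that still held the region and strain differences, so they can carry part of those differences. The members' differences above are means of the deposited values, so sizes are not directly comparable. Without that adjustment the list medians were larger in size, except for microglia markers. The excitatory postsynaptic density list, for one, was at -0.49 against -0.40. Among 13 measured paralogs of the members 8 fell and 3 rose, with a median of -0.46. The Dlgap1 relatives fell by 1.46 (Dlgap2), 0.99 (Dlgap3) and 0.76 (Dlgap4) on the log2 scale, and Homer2 fell by 0.68 and Dlg3 by 0.75. Itpkb, a kinase of the same substrate as Itpka, moved the other way and rose by 1.28, while Dlg5 rose by 0.24 and Icam2, an endothelial relative of Icam5, by 0.18.

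The other excitatory postsynaptic density genes went mostly in the direction of the members. Of 32 measured, 24 fell and 3 rose, with a median of -0.40, and the largest decreases were in Baiap2 (-1.59), a regulator of actin at membranes, Nrgn (-1.39), a calmodulin-binding protein of spines, and Agap2 (-1.32). Grip2, Magi1 and Tanc1 rose by 0.30, 0.17 and 0.17. Of 25 dendrite and spine genes 17 fell and 2 rose (median -0.57), led by Rgs14 (-1.76), Grasp (-1.75) and Actn2 (-1.55), whereas Limk1, a kinase that acts on cofilin, rose by 0.74 and Pak3 by 0.11. Of 9 inhibitory postsynapse genes 6 fell and none rose (median -0.35), with Ctnnd2 and Insyn1 at -0.41 and Nlgn2, an adhesion molecule of inhibitory synapses, at -0.40. Of 24 genes of the presynaptic release machinery 17 fell and 4 rose (median -0.28). Stx1a, a syntaxin of vesicle fusion, fell by 1.60, Bsn by 1.20 and Unc13a by 0.89, and Vamp1 rose by 1.03, Cplx1 by 0.30 and Sv2a by 0.10.

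Cell type markers differed between the regions in parallel. Of 13 general neuronal markers 9 rose in hindbrain and 2 fell (median 0.16), with Nefh at 1.18, Nefm at 0.64 and Uchl1 at 0.53 against Rbfox3 at -0.78 and Rtn1 at -0.11. Of 16 markers of telencephalic glutamatergic neurons 15 fell and none rose (median -1.22), led by Tbr1 (-3.40), Neurod6 (-2.66) and Fezf2 (-2.50), transcription factors of cortical projection neurons. The mean of these 16 was 7.54 ± 0.19 (7.32 to 7.85) in NOD hindbrain and 7.59 ± 0.23 (7.21 to 8.00) in C57BL/6J hindbrain, against 9.09 ± 0.04 in NOD forebrain and 9.15 ± 0.14 in C57BL/6J forebrain. All 15 measured oligodendrocyte markers rose (median 0.69; Gjc3 0.96, Aspa 0.96, Fa2h 0.95), 9 of 12 astrocyte markers rose and 3 fell (median 0.32; S100b 0.81, Aqp4 0.61, Gjb6 0.54), and 1 of 11 microglia markers rose and 7 fell (median -0.14; P2ry12 -0.30, Cx3cr1 -0.26, C1qa -0.20). In such tissue pieces fewer cells of a type and less RNA per cell cannot be told apart, and the part of cell makeup in the members' differences was not tested.

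**Figure D3:**
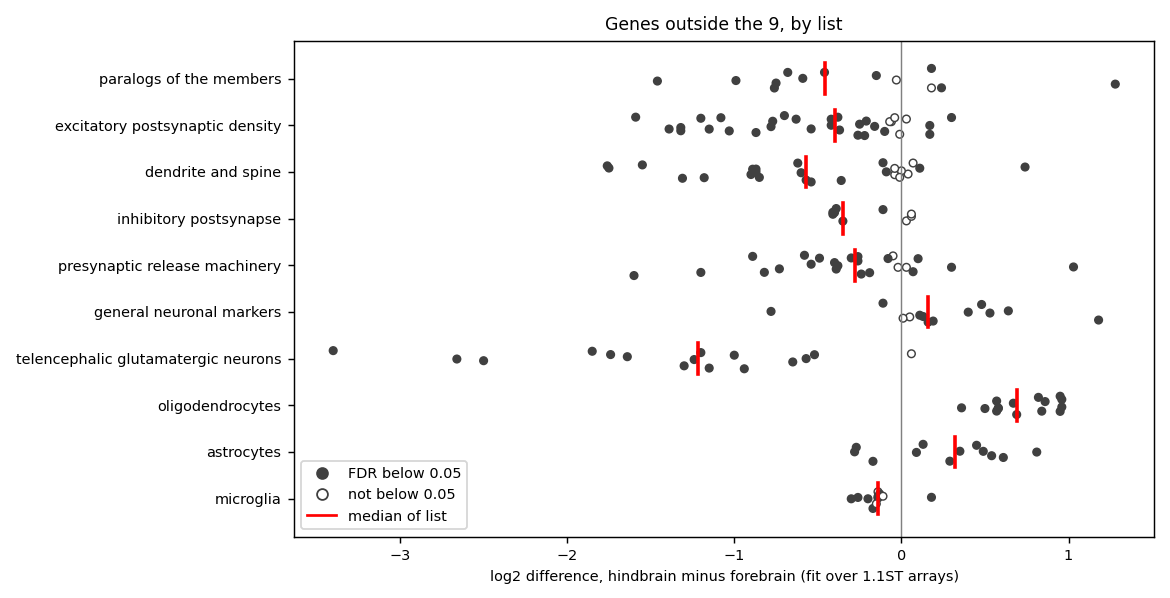
Hindbrain minus forebrain difference (log2) of the measured genes of each list outside the 9, with 1 point per gene and a bar at the list's median. Telencephalic glutamatergic markers lie lowest (median -1.22), the postsynaptic, dendritic and presynaptic lists between -0.57 and -0.28, and oligodendrocyte markers highest (median 0.69).

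Between the strains more members were called in hindbrain than in whole brain or forebrain. With all arrays in 1 limma fit, Shank2, Shank3, Dlgap1, Ddn and Icam5 were called lower in NOD than in C57BL/6J hindbrain, 5 of 9 members and none higher, where 8.69% of all clusters were called lower and 20.4% in either direction. The median fitted difference of the 9 genes was -0.35, against 0.02 over all clusters, and on the 1.0ST arrays, which hold the same RNA, it was -0.05, against 0.01 over all clusters. On the 1.1ST arrays the 9 differences ran from -0.47 to -0.10. Hindbrain levels of the strains overlapped for each gene, and the share of all clusters that overlap is not given.

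Shank3 had the firmest difference. Its hindbrain levels ran from 7.19 to 7.71 (median 7.36) in NOD and from 7.37 to 8.24 (median 7.84) in C57BL/6J, so that 5 of 8 NOD hindbrains lay below every C57BL/6J hindbrain and 5 of 8 C57BL/6J hindbrains above every NOD one. The fitted difference was -0.45 (SE 0.07, 1.37-fold lower in NOD, false discovery rate 1.4e-06). Mutations that disable one copy of the human gene are a known cause of a neurodevelopmental syndrome in people. Shank2 ran from 7.17 to 7.60 (median 7.28) in NOD hindbrain and from 7.28 to 8.00 (median 7.74) in C57BL/6J hindbrain, and was fitted at -0.35 (SE 0.08, 1.28-fold lower, false discovery rate 0.000703). Dlgap1, whose hindbrain levels are given above with 5 of 8 NOD values below every C57BL/6J value, was fitted at -0.28 (SE 0.06, 1.22-fold lower, false discovery rate 0.000217). These 3 calls held without any 1 of the 16 mice.

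Icam5 and Ddn were the dendrite genes called. Icam5 was fitted at -0.47 (SE 0.13, 1.39-fold lower in NOD, false discovery rate 0.00481), and 4 of 8 NOD hindbrains lay below every C57BL/6J hindbrain. Ddn had a difference of the same size but a wider error, -0.47 (SE 0.19, 1.38-fold lower, false discovery rate 0.0481), and this call was lost in 11 of 15 alternatives and on leaving out any 1 of 5 mice, the NOD mice DD658 and DD659 and the C57BL/6J mice BB685, BB686 and BB703. With vehicle mice only, the Ddn value turned to 0.07 (false discovery rate 0.595). Shank1 (-0.21, false discovery rate 0.0748), Itpka (-0.35, 0.0568), Dlg4 (-0.10, 0.0837) and Homer1 (-0.15, 0.171) were not called. For Itpka the 95% interval ran from -0.65 to -0.06 and for Homer1 from -0.32 to 0.03. The errors of this fit pool the spread of all regions. Ddn, Icam5 and Itpka spread more widely in hindbrain than in forebrain, so their hindbrain errors may be too small.

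Some cell type markers were also called between the hindbrains of the strains, where 20.4% of all clusters were called in either direction and 8.69% lower in NOD. The count of telencephalic markers called in either direction was no higher than the share over all clusters. Of 16 telencephalic glutamatergic markers 3 were called lower in NOD and none higher (median -0.11), among them Tbr1 at -0.78, and of 15 oligodendrocyte markers 6 were called higher and none lower (median 0.11). The mean of the oligodendrocyte markers ran from 10.04 to 10.42 in NOD and from 10.05 to 10.37 in C57BL/6J hindbrain. Of 13 general neuronal markers 5 were called higher and none lower (median -0.01), of 12 astrocyte markers 4 higher and 3 lower (median 0.01), and of 11 microglia markers 5 higher and 2 lower (median 0.09). With the 1.0ST arrays the telencephalic median turned to 0.07 (1 marker higher, 2 lower), and 4 oligodendrocyte markers were called higher and 1 lower (median 0.03). Without the surrogate variables described above, 2 oligodendrocyte markers were called higher. The part of these cell types in the members' strain differences was not tested.

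These calls differed between the array formats. On the 1.0ST arrays only Shank2 (-0.28) and Shank3 (-0.26) were called in hindbrain among the 9. There the calls lost were at -0.08 for Dlgap1 (false discovery rate 0.12), -0.05 for Ddn (0.522) and -0.05 for Icam5 (0.431). The hindbrain of the C57BL/6J mouse BB702 differed between the formats: over 12706 clusters its deviations from the group mean on the 1.1ST and 1.0ST arrays correlated at -0.01, where the other 15 hindbrains had values from 0.38 to 0.89. Its Ddn level was 9.32 on the 1.1ST array and 8.06 on the 1.0ST array, and its telencephalic marker mean of 8.00 on the 1.1ST array was the highest of the 16 hindbrains. Without this tissue piece, an alternative added after seeing the data, 4 members were called on the 1.1ST arrays (Ddn at -0.40, false discovery rate 0.0962, was lost) and 6 on the 1.0ST arrays: Shank2 (-0.36), Shank3 (-0.34), Dlgap1 (-0.18), Ddn (-0.43), Icam5 (-0.28) and Itpka (-0.30). With vehicle mice only, 4 per strain, 2 members were called, Shank2 and Shank3. The share of all clusters called is not given for these alternative fits, so their counts of members cannot be set against it or compared between fits.

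**Figure D4:**
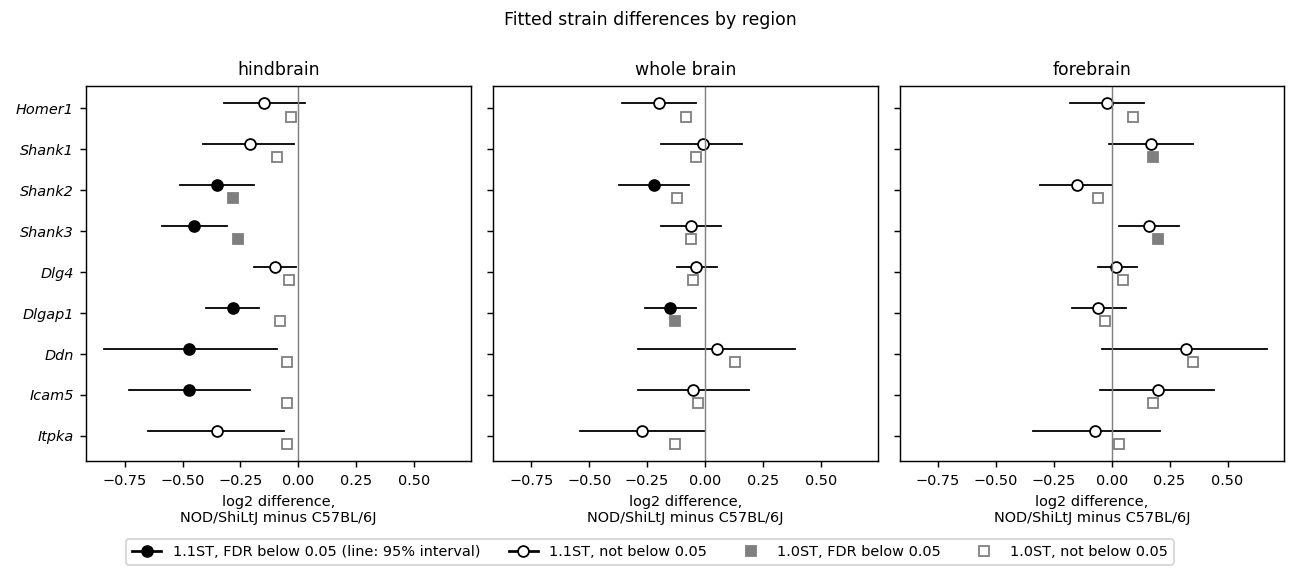
Fitted NOD/ShiLtJ minus C57BL/6J difference of each gene in hindbrain, whole brain and forebrain on the 1.1ST arrays (circles, log2, with 95% intervals) and on the 1.0ST arrays (squares), filled where called at a false discovery rate below 0.05. On the 1.1ST arrays the hindbrain values lie between -0.47 and -0.10 and the forebrain values between -0.15 and 0.32.

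In forebrain no member was called (17.7% of all clusters were called in either direction and 8.76% lower in NOD), and 2 had an unadjusted p below 0.05 by limma, Shank2 and Shank3, where 25.8% of all clusters did. Fitted differences ran from -0.15 for Shank2 to 0.32 for Ddn, and Shank3 was at 0.16 (false discovery rate 0.0584), on the other side of 0 from its hindbrain value. Both Shank1 (0.18) and Shank3 (0.20) were called higher in NOD forebrain on the 1.0ST arrays. The raw forebrain levels of Ddn and Itpka lay largely apart between the strains, though this fit called neither. For Ddn the fitted difference of 0.32 (SE 0.17) was larger than the raw difference of means, 0.16. For Itpka the fitted -0.07 (SE 0.14) was smaller in size than the raw -0.20. The errors of this fit include the wider spread of the hindbrains. Ddn ran from 11.24 to 11.42 in NOD and from 11.06 to 11.29 in C57BL/6J forebrain, with 5 of 8 NOD values above every C57BL/6J value, and Itpka from 9.37 to 9.68 in NOD and from 9.55 to 9.85 in C57BL/6J, with 7 of 8 C57BL/6J values above every NOD value. When each region was fitted alone without surrogate variables, Ddn was called higher in NOD forebrain at 0.16 (SE 0.04, false discovery rate 0.0203), where 4.74% of clusters were, and Itpka lower at -0.20 (SE 0.05, false discovery rate 0.0175), where 6.08% were. On the 1.0ST arrays fitted the same way, added after seeing the data, the values were 0.13 (0.0159) and -0.16 (0.0447). In that fit of hindbrain alone on the 1.1ST arrays Shank2, Shank3, Dlgap1 and Icam5 were called lower in NOD, where 6.82% of clusters were, and Ddn was not called (false discovery rate 0.138).

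In whole brain 2 members were called lower in NOD, Shank2 at -0.22 (SE 0.07, 1.16-fold, false discovery rate 0.023) and Dlgap1 at -0.15 (SE 0.05, 1.11-fold, false discovery rate 0.0344), where 8.7% of all clusters were called lower and 18% in either direction. Shank2 ran from 7.88 to 8.36 (median 8.24) in NOD and from 8.28 to 8.71 (median 8.41) in C57BL/6J whole brain, with 6 of 8 C57BL/6J values above every NOD value. Dlgap1 ran from 10.15 to 10.82 in NOD and from 10.52 to 10.86 in C57BL/6J whole brain. Neither was called without the whole brain array of NOD mouse DD656, the array with low telencephalic markers. Shank2 was also lost without C57BL/6J mouse BB687, BB702 or BB708, and Dlgap1 without 8 of the 16 mice in turn. Dlgap1 (-0.13) was the 1 member called on the 1.0ST arrays. Homer1 was at -0.20 on the 1.1ST arrays (false discovery rate 0.0541).

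The strain difference depended on region for Shank3, and for Icam5 in part of the alternatives. The strain difference in hindbrain minus that in forebrain was -0.62 for Shank3 (SE 0.09, false discovery rate 2.58e-05) and -0.67 for Icam5 (SE 0.17, false discovery rate 0.0202), where 2.29% of all clusters were called in either direction. In forebrain Shank3 ran from 8.18 to 8.62 (median 8.47) in NOD and from 7.91 to 8.54 (median 8.32) in C57BL/6J, so the NOD mice held the higher median there and the lower one in hindbrain. For Shank3 the hindbrain minus forebrain difference within a mouse averaged -1.04 ± 0.29 in NOD and -0.52 ± 0.26 in C57BL/6J, and for Icam5 -2.99 ± 0.46 in NOD and -2.29 ± 0.42 in C57BL/6J (SD, n = 8 each). Without any 1 mouse Shank3 stayed called, and Icam5 was lost without NOD mouse DD658 or DD659 or C57BL/6J mouse BB685 or BB686. The Shank3 call held in 13 of 14 alternatives and the Icam5 call in 7, and without the whole brain array of DD656 Icam5 was at -0.55 (false discovery rate 0.0514). Ddn had a larger but less certain difference of -0.79 (SE 0.24, false discovery rate 0.0711), Shank1 was at -0.38 (0.0849), Dlgap1 at -0.23 (0.105) and Shank2 at -0.20 (0.357). Shank3 was also called on the 1.0ST arrays, at -0.46, and Icam5 was not, at -0.23 (0.293). For whole brain against forebrain the strain difference was called for no member, and 0% of all clusters were called. By limma 1 member, Shank3, had an unadjusted p below 0.05 there, as had 5.59% of all clusters, and the mixed models called none.

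Further clusters of the same genes did not always give the same value. A second Dlgap1 cluster, with the lower mean, was lower in NOD, at -0.32 in hindbrain (false discovery rate 3.03e-06), -0.24 in whole brain (9.94e-05) and -0.36 in forebrain (1.37e-07), so for this part of the gene the strain difference was also called in forebrain. The strain difference in hindbrain minus that in forebrain was 0.03 for this cluster (false discovery rate 0.739). The cluster itself differed by -0.51 ± 0.16 between hindbrain and forebrain (8.61 in hindbrain against 9.12 in forebrain, lower in 16 of 16 mice), a smaller drop than in the cluster used above. On the 1.1ST arrays the 2 further Shank2 clusters, which were higher in hindbrain than in forebrain, differed by -0.35 (false discovery rate 0.00191) and -0.39 (0.000541) between NOD and C57BL/6J hindbrain and stood at 0.18 and 0.16 in forebrain, neither of them called. For both the strain difference depended on region, at -0.53 (false discovery rate 0.00482) and -0.55 (0.00273), where the cluster used above was not called. A strain difference on probes can also come from sequence differences under the probes, which cannot be told apart here from a difference in RNA.

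More of the excitatory postsynaptic density genes outside the 9 were called lower than higher in NOD hindbrain, and the size of this differed between the array formats. Of 32, 13 were called lower and 2 higher (median -0.11), with Lrrtm1 at -0.44, Lrrc7 at -0.39, Nrgn at -0.31 and Kalrn at -0.29, chosen for mention after their values were seen. Over all clusters 8.69% were called lower in NOD hindbrain and 20.4% in either direction. With the 1.0ST arrays 8 were lower and 4 higher (median -0.02), and without surrogate variables 9 were lower and none higher (median -0.10). Lrrtm1 is a synaptic adhesion molecule, Lrrc7 encodes densin, a scaffold of the postsynaptic density, and Kalrn a guanine exchange factor that shapes spines. In forebrain 3 of 32 were called lower and none higher, where 8.76% of all clusters were called lower. Of 13 paralogs 4 were called lower in hindbrain, Dlgap4 (-0.30), Dlgap3 (-0.26), Homer2 (-0.26) and Dlg3 (-0.16). Among 25 dendrite and spine genes 5 were lower and 3 higher, among 24 presynaptic genes 4 were lower and 2 higher, and among 9 inhibitory postsynapse genes 1 was lower. The presynaptic and inhibitory counts in either direction lay near or below the share over all clusters.

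Clozapine changed no member past the threshold. Over regions and strains the fitted differences between clozapine and vehicle ran from -0.07 for Shank1 to 0.19 for Itpka, and 2.92% of all clusters were called in either direction. Itpka was the 1 member with an unadjusted p below 0.05 by limma, as had 4096 of all 28310 clusters (SE 0.08, false discovery rate 0.219, 95% interval 0.02 to 0.36). Its levels averaged 6.86 ± 0.55 with clozapine and 6.35 ± 0.47 with vehicle in hindbrain, 9.41 ± 0.18 with clozapine and 9.17 ± 0.50 with vehicle in whole brain, and 9.64 ± 0.13 with clozapine and 9.69 ± 0.16 with vehicle in forebrain (SD, n = 8 each). The mixed models called no member either. For Homer1, whose short form is induced by neuronal activity, the difference was 0.07 (95% interval -0.03 to 0.18), and the cluster does not tell the short and long forms apart.

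The spread of the members among hindbrains was not shared by all 9. Around the strain means, 10 of 36 pairs of genes were correlated over the 16 hindbrains with adjusted p below 0.05 by both Pearson's r and Spearman's rho (permutation of mice within strain, 100000 draws, Benjamini-Hochberg over the 36 pairs, two-sided). The closest pairs were Shank1 with Dlg4 (r 0.92, p 6e-05, adjusted p 0.0011, rho 0.82, adjusted 0.0095) and Ddn with Icam5 (r 0.90, p 1e-05, the smallest these draws can give, adjusted p 0.00036, rho 0.93, adjusted 0.00072). Without the 2 mice farthest from the median of the first gene the r values were 0.89 and 0.88. Shank2 with Shank3 had r 0.86 (p 0.00059, adjusted p 0.0064, rho 0.84, adjusted 0.012; 0.83 without the 2 farthest mice), and Homer1 with Itpka r 0.82 (p 0.00071, adjusted p 0.0064, rho 0.74, adjusted 0.02; 0.67 without them).

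The other 6 pairs with adjusted p below 0.05 were Shank1 with Shank2 (r 0.78) and Shank3 (0.70), Shank2 with Dlg4 (0.74) and Dlgap1 (0.72), Dlgap1 with Itpka (0.70) and Shank3 with Dlgap1 (0.67). Dlgap1 stood lower with Shank1 (0.47, adjusted p 0.19) and with Dlg4 (0.33, adjusted p 0.38). Across the scaffold and dendrite genes several values lay near 0, such as Shank3 with Ddn (r 0.04, adjusted p 0.92), Shank3 with Icam5 (0.07, adjusted p 0.88) and Shank1 with Itpka (-0.05, adjusted p 0.92). Without the hindbrain of BB702 the 4 closest pairs had r 0.91, 0.91, 0.86 and 0.77 in the order given above. On the 1.0ST arrays they had 0.93, 0.78, 0.88 and 0.64. The pairs named as near 0 were higher there, with Shank3 at 0.42 with Ddn and 0.33 with Icam5, and Shank1 at 0.29 with Itpka. Each value comes from 1 array per mouse, so shared dissection and array effects are part of these correlations and were not tested. Treatment was not removed from these values either. In hindbrain Itpka averaged 0.51 and Homer1 0.19 higher with clozapine than with vehicle, and the part of treatment in the correlations was not tested.

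**Figure D5:**
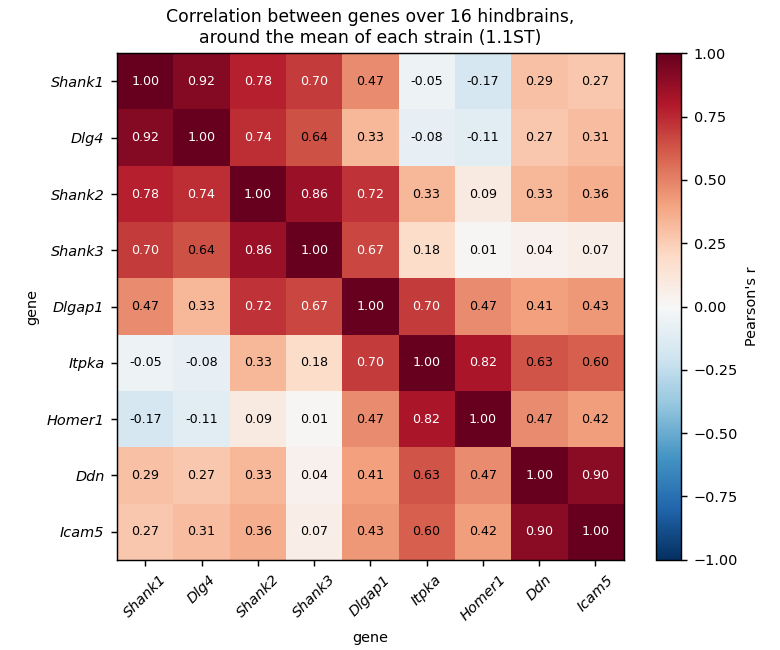
Correlation of the 9 genes over 16 hindbrains of the 1.1ST arrays, with each gene taken as deviation from its strain mean (Pearson's r, colour scale from -1 to 1). The Shank genes with Dlg4 have r from 0.64 to 0.92 among themselves and Ddn with Icam5 0.90, with r from 0.04 to 0.07 between Shank3 and the second pair.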

How the data were processed

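Total RNA of 3 brain regions of 16 mice was hybridised by the authors to 48 Mouse Gene 1.1ST and 48 Mouse Gene 1.0ST arrays. The deposited values are log2 signals of 28310 transcript clusters, background-corrected, quantile-normalised and summarised by RMA by the authors, with Affymetrix Expression Console 1.1 named in the submitters' processing notes, each format separately. Array medians were 6.28 to 6.61 on 1.1ST and 8.14 to 8.23 on 1.0ST. Precision is limited by 8 mice per strain. In the joint fit each cluster had 1 residual spread over all 48 arrays, so its p-values do not measure the spread within 1 region. The SD of Ddn was 0.07 in the forebrains of each strain, 0.70 in NOD hindbrains and 0.79 in C57BL/6J hindbrains. Its fitted SE for the strain difference was 0.17 in forebrain and 0.19 in hindbrain.

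Groups and mouse numbers came from the labels. Array-processing batch and side of the hemisphere are not used here. All clusters were fitted with limma 3.58.1 (R 4.3.3, statmod 1.5.0): terms for each combination of strain and region, for treatment and for 5 surrogate variables, with mouse entered as random block (consensus correlation 0.031). The mouse pairs the regions: residuals of arrays of 1 mouse correlated at 0.0813, those of other mice at -0.00487. The false discovery rate followed the formula of the study's methods and clusters below 0.05 were called. Scripts were tested on simulated data. Alternatives were no surrogate variables, no replicate block, a fixed block, mixed models (lme4 1.1.37, lmerTest 3.1.3), Benjamini-Hochberg adjustment, a mean above 5, median centring, hour of kill, single regions, vehicle mice, the 1.0ST arrays and leaving out arrays or mice.

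The members and the gene lists were chosen with earlier results of these data known. Named outside the members were up to 3 called genes per list and direction with the largest region difference, the 8 clusters most like the members' mean profile, and relatives set beside a member. Cluster annotation came from the platform table, and coordinates and promoters from RefSeq (GRCm38.p6).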

Additional observations from a re-analysis of the deposited data

Results flagged for a closer look

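In 8 of 54 groups of 8 mice (9 genes, 3 regions, 2 strains) the lowest mouse stood apart from the rest by Dixon's criterion. Chance alone meets it in about 5% of independent groups. The 9 genes were read on the same arrays, so these 8 groups cannot be set against that rate. The whole brain of the NOD mouse DD656 accounted for 4 of them: Homer1 was at 9.099 against 9.953 in the nearest mouse, Ddn at 10.173 against 10.902, Icam5 at 7.689 against 8.556 and Itpka at 7.995 against 9.102. The whole brain of the C57BL/6J mouse BB707 accounted for 2, with Homer1 at 9.641 against 10.122 and Itpka at 9.032 against 9.413. Its telencephalic marker mean was 8.60 and its oligodendrocyte marker mean 9.86, the highest among the C57BL/6J whole brains. The remaining 2 were forebrains, with Shank2 at 7.969 in the NOD mouse DD676 (nearest 8.381) and Itpka at 9.548 in the C57BL/6J mouse BB703 (nearest 9.710).

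The strain difference in hindbrain differed from that in forebrain by -0.62 for Shank3 and by -0.67 for Icam5, by the test of that difference in the limma fit. The Icam5 call was lost in 7 of 14 alternatives.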

How the results depend on the processing

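Of the members called in the 1.1ST fit, Shank2 and Shank3 in hindbrain held in 14 of 15 alternatives, and Dlgap1 and Icam5 there in 11. The 5 hindbrain calls became 2 on the 1.0ST arrays, 2 on them without surrogate variables, 0 on them with each region fitted alone and 2 with vehicle mice only. They ranged from 4 to 7 when 1 mouse was left out. On the 1.1ST arrays the Ddn call in hindbrain was also lost with Benjamini-Hochberg adjustment, median centring, hour of kill, single regions and the mixed models. It was lost as well without the whole brain of DD656 and without the hindbrain of BB702. The 0 forebrain calls became 2 on the 1.0ST arrays, 2 with each region alone on either format, 2 with vehicle mice only, 2 on the 1.0ST arrays without the hindbrain of BB702, and 1 each with a mean above 5, with median centring, without the whole brain of DD656 and without the hindbrain of BB702 (0 to 2 with 1 mouse left out). The 2 whole brain calls became 1 each on the 1.0ST arrays, with Benjamini-Hochberg adjustment, with median centring and with each region alone, and 0 each without surrogate variables, on the 1.0ST arrays without them, on the 1.0ST arrays with each region alone and without DD656 (0 to 4 with 1 mouse left out). The 2 differences between hindbrain and forebrain became 4 with a mean above 5, 0 on the 1.0ST arrays without surrogate variables, and 1 each on the 1.0ST arrays, without surrogate variables, with median centring, with vehicle mice only and on the 1.0ST arrays without BB702 (1 to 4 with 1 mouse left out). The 0 clozapine calls ranged from 0 to 1 with 1 mouse left out. With no replicate block the counts stayed at 5 in hindbrain, 2 in whole brain, 0 in forebrain and 2 between regions. With mouse as a fixed block, where strain differences within a region cannot be estimated, 2 differed between regions. The mixed models, which fit the mouse for each cluster, lost the Ddn call in hindbrain. Signs turned, none of them called, for Itpka in forebrain (0.03 on the 1.0ST arrays, and from -0.19 to 0.03 with 1 mouse left out), for Homer1 (0.01) and Ddn (0.07) in hindbrain with vehicle mice only, and for Dlgap1 between hindbrain and forebrain on the 1.0ST arrays without surrogate variables (0.02). On the 1.0ST arrays fewer listed genes were called higher in hindbrain than forebrain: 1 paralog against 3 on 1.1ST, 0 postsynaptic density genes against 3, 1 dendrite gene against 2, 1 presynaptic gene against 4 and 0 microglia markers against 1, with 1 inhibitory gene against 0. There 1 neuronal marker was called lower against 2, and 2 microglia markers against 7. Without surrogate variables 1 inhibitory gene and 1 telencephalic marker were called higher, against 0. Between the strains in hindbrain 8 postsynaptic density genes were called lower on the 1.0ST arrays and 9 without surrogate variables, against 13, and 4 and 2 oligodendrocyte markers higher, against 6. These list counts between strains, the fits without surrogate variables on the 1.0ST arrays and those without BB702 were added after seeing the data, and the causes of these changes were not tested. Shares of all clusters called are given above only for the 1.1ST fit and for single regions on 1.1ST, so counts of the other fits stand without them. The number of arrays limits the precision.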
